A study of Mus musculus with 6 samples.

Results

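The 8 enzymes Acat2, Hmgcs1, Mvk, Pmvk, Mvd, Idi1, Fdps and Ggps1 belong to the route from acetyl-CoA to the isoprenyl pyrophosphates farnesyl and geranylgeranyl pyrophosphate. They were taken by gene symbol as members of this route, and all 8 were found among the 24421 genes of the count table. The list does not hold every enzyme of the route. In the mevalonate pathway, acetyl-CoA units are joined to HMG-CoA, mevalonate is phosphorylated and decarboxylated to isopentenyl pyrophosphate, and this building block is assembled into longer chains. Farnesyl pyrophosphate feeds sterol synthesis and protein farnesylation, and geranylgeranyl pyrophosphate feeds the lipid anchors of Rab proteins. SREBP2, the product of Srebf2, is the transcription factor that activates this pathway when sterols run low, and the pathway has been linked to the proliferation and suppressive function of regulatory T cells.

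RNA came from regulatory T cells (Tregs, CD4 T cells that express Foxp3) of the spleen and lymph nodes of mice, with 3 libraries in each genotype. The Srebp2WT group (replicates 1, 3 and 5) was labelled Srebp2WT/WT-Foxp3YFPCRE+/+, and the Srebp2cKO group (replicates 6, 7 and 8) was labelled Srebp2FL/FL-Foxp3YFPCRE+/-. Both groups thus carried a Cre recombinase with a yellow fluorescent protein at Foxp3, a driver active in cells that express Foxp3. Cre allele dose differed along with the Srebf2 genotype, and effects of the pair cannot be told apart. The labels give neither age nor whether each library is a separate animal, and the p-values below therefore reflect the spread among these libraries alone, which could be technical. The question is how transcripts differ in Tregs without SREBP2.

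Libraries held 13918321 to 17249898 counts. Srebf2 stood at 191, 192 and 172 CPM (counts scaled to library size with TMM factors, here and below unless stated) in Srebp2WT and at 13.7, 12.7 and 10.7 CPM in Srebp2cKO. Foxp3 ranged from 440 to 461 CPM in Srebp2WT and from 419 to 466 CPM in Srebp2cKO, and Cd4 was also present in all libraries. Other Treg markers did differ. Of 6 tested, edgeR called 1 higher and 0 lower, against 2.37% and 4.24% of all genes tested. Every Srebp2cKO library lay above every Srebp2WT library for 2 of the 6 and below for 2, against 16% and 15.5% of all genes tested. The 6 B cell markers summed to 56.4 to 79.4 CPM of total counts in Srebp2WT and 25.8 to 34.5 in Srebp2cKO. This sum and the marker sums that follow use CPM of total counts, without TMM factors. Of 4 tested, edgeR called 3 lower (Cd74, Cd22 and Cd79b, with log2 fold changes of -1.14, -1.52 and -0.68), against 4.24% of all genes tested. Cd79a, the other one tested, was not called and had only 8 to 17 counts per library. It stood at 0.501, 0.709 and 0.812 CPM in Srebp2WT and higher, at 1.03, 0.968 and 0.991 CPM, in Srebp2cKO. The 6 myeloid markers summed to 53.9 to 88.2 and 37.1 to 42.8 CPM, most of it Cybb. Of 3 tested, Cybb (log2 fold change -0.87) was called lower and 0 were higher, against 4.24% and 2.37% of all genes tested. The median log2 fold change of the 3 was 0.35. Cd68 stood at 3.26, 3.35 and 3.25 CPM in Srebp2WT and at 4.11, 4.71 and 3.79 CPM in Srebp2cKO. Itgam stood at 0.815, 0.644 and 1.42 CPM in Srebp2WT and at 2.57, 1.29 and 2.22 CPM in Srebp2cKO. Ms4a1 had at most 2 counts and Lyz2 at most 5 in any library. The sums of 4 CD8 and natural killer cell markers overlapped between the genotypes (8.71 to 10.3 and 9.53 to 10.9 CPM), with Ncr1 at 0 counts in all 6 libraries. Of the 2 tested, Klrb1c was called lower (log2 fold change -1.36) and 0 were higher, against the same 4.24% and 2.37%. Cd8b1 (0.31) was not called, with every Srebp2cKO library above every Srebp2WT library, as in 16% of all genes tested. The sums of 10 proliferation markers overlapped too (222 to 313 and 210 to 283 CPM). Of these, 9 had a negative log2 fold change (median -0.37 over the 10), against 50% of all genes tested. EdgeR called 1 lower (Tyms, -0.60) and 0 higher, against 4.24% and 2.37% of all genes tested. Pcna, with the highest mean level, had 0.32 and was not called. The 5 erythroid and stromal markers summed to 168 to 181 and 217 to 230 CPM, nearly all of it Pecam1. Of 2 tested, Pecam1 was called higher (0.39) and 0 were lower, against 2.37% and 4.24% of all genes tested. Which cells the Pecam1 transcripts came from was not tested. Cd79a, Cd68, Itgam, Cd8b1 and Pcna were named after their values were seen. The part of these differences in the results below was not tested. In such bulk libraries, fewer cells of a type and less RNA per cell cannot be told apart.

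Promoter sequence is shown here for 4 of the enzymes to mark matches to motifs of SREBP2 or of factors that act beside it. Of these 4, only Hmgcs1 holds an exact core of the SREBP2 motif. Windows from 250 bases before to 50 bases after a start were found in the RefSeq table (GRCm38.p6) for 7 of the 8 enzymes, all but Fdps, with 2 windows for Pmvk. Both strands were searched for the core of the sterol regulatory element (SRE), TCACNCCAC, which SREBP proteins bind, for the NF-Y box CCAAT and for the Sp1 box GGGCGG. NF-Y and Sp1 are general activators known to work together with SREBP proteins. The stretches below run 5′ to 3′ on the strand of the gene and end before its annotated exons. Capitals mark the exact SRE core and the NF-Y boxes on either strand, and in Acat2, which has neither, the matches to the SRE core with 1 mismatch.
Hmgcs1, chr13:119690101-119690350, plus strand: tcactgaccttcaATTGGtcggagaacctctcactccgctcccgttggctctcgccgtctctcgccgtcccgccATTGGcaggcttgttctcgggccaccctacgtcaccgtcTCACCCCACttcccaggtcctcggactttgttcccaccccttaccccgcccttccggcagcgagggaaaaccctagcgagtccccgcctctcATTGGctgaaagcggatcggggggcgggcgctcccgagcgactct
Mvk, chr5:114444061-114444268, plus strand: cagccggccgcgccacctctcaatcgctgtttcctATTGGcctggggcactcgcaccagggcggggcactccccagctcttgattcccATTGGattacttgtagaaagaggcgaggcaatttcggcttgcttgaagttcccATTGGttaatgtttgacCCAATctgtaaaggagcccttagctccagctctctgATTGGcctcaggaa
Mvd, chr8:122443423-122443672, minus strand: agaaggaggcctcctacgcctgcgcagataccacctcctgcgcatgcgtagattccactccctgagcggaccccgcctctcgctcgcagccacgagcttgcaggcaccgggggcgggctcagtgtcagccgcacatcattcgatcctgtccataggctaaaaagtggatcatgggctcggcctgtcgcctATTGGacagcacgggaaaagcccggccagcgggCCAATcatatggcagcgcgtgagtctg
Acat2, chr17:12960748-12960975, minus strand: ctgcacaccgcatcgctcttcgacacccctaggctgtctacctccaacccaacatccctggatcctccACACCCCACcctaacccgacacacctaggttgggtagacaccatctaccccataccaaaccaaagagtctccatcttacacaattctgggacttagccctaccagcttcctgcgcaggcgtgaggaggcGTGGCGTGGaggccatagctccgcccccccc

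Hmgcs1 was the only enzyme of the 7 with an exact SRE core, 137 bases before its start, among 1.24% of all 32851 windows that held it (1.11% of the 11272 windows of tested genes). It lies between NF-Y boxes, as the capitals show. A match to the core with 1 mismatch was present for Hmgcs1 and Acat2, against 23.3% of all windows. An NF-Y box was present in at least 1 window of 6 of the 7 enzymes, all but Acat2, against 37.4% of all windows. Over the whole windows Mvk had 5 of them, the most among these enzymes, Hmgcs1 4, Ggps1 3, Mvd and Idi1 2 each, and Pmvk 1. Those of Idi1 began 45 and 14 bases before its RefSeq start, within an exon of a longer GENCODE transcript. The Sp1 box was present for Acat2, Hmgcs1, Mvk, Mvd and Idi1, against 35.7% of all windows and 62.7% of those of tested genes. A match describes these letters and is not evidence of binding.

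All 8 enzymes passed the filter on low counts and were tested among 11932 genes. In Srebp2cKO Tregs, edgeR called 4 of them lower (adjusted p under 0.05), namely Idi1, Fdps, Mvk and Hmgcs1, against 4.24% of all genes tested. None was higher, against 2.37% of all genes tested, and no enzyme with a positive log2 fold change had an unadjusted p under 0.05; DESeq2 and limma-voom also called 0 higher. The median log2 fold change (Srebp2cKO minus Srebp2WT) was -0.64 over the 8 enzymes and 0.00 over all genes tested. In 5 of the 8 enzymes every Srebp2cKO library lay below every Srebp2WT library, which was the case for 15.5% of all genes tested. The reverse order was seen in 0 of the 8 enzymes and in 16% of all genes tested. The enzymes at the 2 ends of the list, Acat2 and Ggps1, were the ones with log2 fold changes nearest to or above 0.

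**Figure D1:**
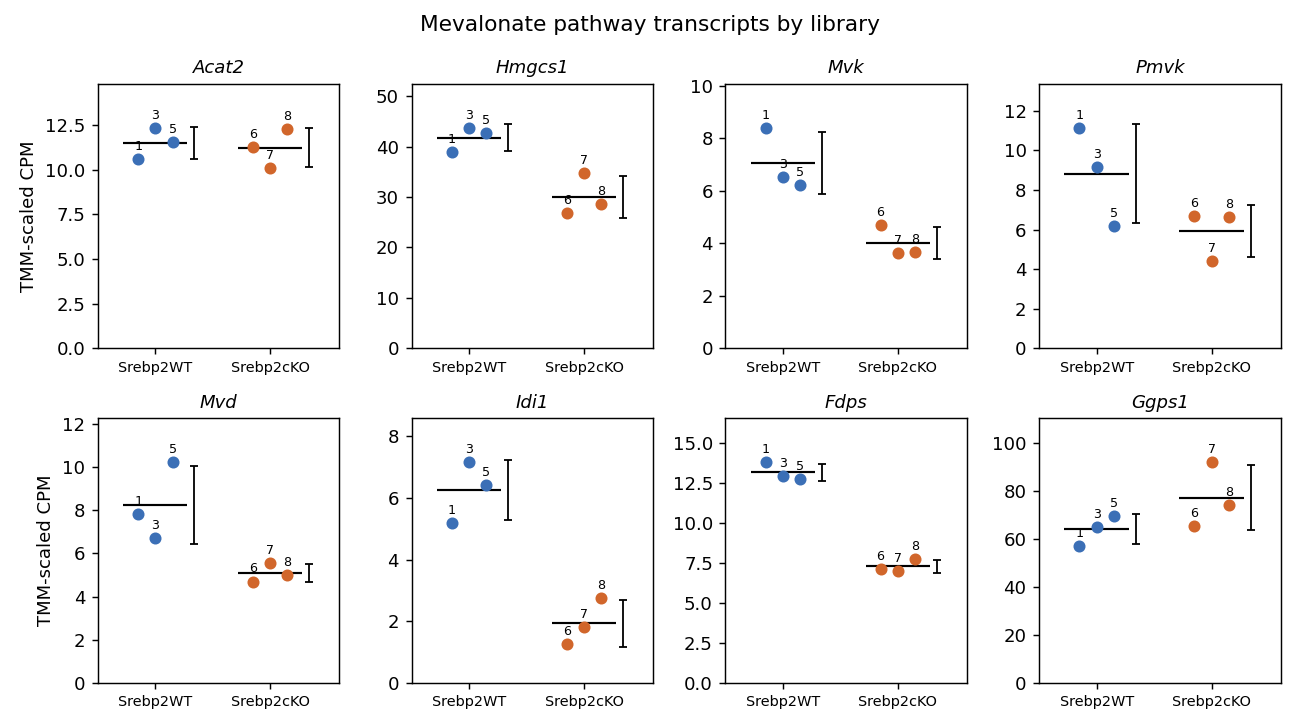
TMM-scaled CPM of the 8 enzymes in each library (points, numbered by replicate), with the mean of 3 libraries (horizontal line) and its SD (bar at the side). The y axes start at 0 and differ between panels. The groups do not overlap for Hmgcs1, Mvk, Mvd, Idi1 and Fdps, and overlap for Acat2, Pmvk and Ggps1.

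Of the enzymes that build HMG-CoA, Hmgcs1 passed and Acat2 did not. Acat2 (ENSMUSG00000023832.14, chromosome 17, 12942890 to 12960747, GRCm38, minus strand) is the cytosolic thiolase that joins acetyl-CoA units to acetoacetyl-CoA. Its transcripts stood at 10.6, 12.4 and 11.6 CPM in Srebp2WT and at 11.3, 10.1 and 12.3 CPM in Srebp2cKO. The groups overlapped throughout. Its log2 fold change of -0.03 (edgeR adjusted p = 0.896, SE 0.13, 95% interval -0.33 to 0.27) did not pass, and the sign turned to 0.023 without Srebp2WT replicate 3 and to 0.033 without Srebp2cKO replicate 7. Of the 50-base words of its longest transcript, 45.9% also occurred in transcripts of Acat3 or Tcp1, so its count is less certain than that of the other enzymes. Acat3, a close paralog, had only 1 to 6 counts per library.

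Hmgcs1 (ENSMUSG00000093930.2, chromosome 13, 119690379 to 119708260, plus strand) is the cytosolic HMG-CoA synthase. It stood at 38.8, 43.7 and 42.8 CPM in Srebp2WT and at 26.7, 34.8 and 28.7 CPM in Srebp2cKO. All 3 Srebp2cKO libraries lay below the lowest Srebp2WT library, and replicate 7 was the highest of them. Hmgcs1 fell to 71.9% of its Srebp2WT level (log2 fold change -0.47, SE 0.11, 95% interval -0.72 to -0.23, edgeR adjusted p = 0.0344). The call was lost in 4 of the 6 fits that left out 1 library, namely without Srebp2WT replicate 1 (adjusted p = 0.0978), replicate 3 (0.130) or replicate 5 (0.0577) and without Srebp2cKO replicate 8 (0.107). Its log2 fold change stayed between -0.63 and -0.40 over all alternatives.

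The enzymes that phosphorylate and decarboxylate mevalonate were measured at low levels, and 1 of the 3 passed. Mvk (ENSMUSG00000041939.14, chromosome 5, 114444269 to 114460591, plus strand) is mevalonate kinase. It stood at 8.40, 6.51 and 6.23 CPM in Srebp2WT and at 4.70, 3.61 and 3.67 CPM in Srebp2cKO, without overlap. Mvk fell to 56.7% of its Srebp2WT level (log2 fold change -0.82, SE 0.20, 95% interval -1.27 to -0.38, edgeR adjusted p = 0.0403). The call was lost without Srebp2WT replicate 1 (adjusted p = 0.175), Srebp2WT replicate 3 (0.111), Srebp2cKO replicate 7 (0.113) or Srebp2cKO replicate 8 (0.108), and with a correction for transcript GC content (log2 fold change -0.66, adjusted p = 0.0654).

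Pmvk (ENSMUSG00000027952.16, chromosome 3, 89454541 to 89469013, plus strand) is phosphomevalonate kinase, the next enzyme. It stood at 11.2, 9.15 and 6.16 CPM in Srebp2WT and at 6.68, 4.39 and 6.65 CPM in Srebp2cKO. The lowest Srebp2WT library, replicate 5, lay below 2 of the Srebp2cKO libraries, and the spread within Srebp2WT (SD 2.51 CPM) was the widest relative to the mean among the 8 enzymes in that genotype. The change did not pass (edgeR adjusted p = 0.146, log2 fold change -0.58, SE 0.24, 95% interval -1.12 to -0.04). It ran from -0.79 without Srebp2WT replicate 5 to -0.38 without Srebp2WT replicate 1.

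Mvd (ENSMUSG00000006517.5, chromosome 8, 122433601 to 122443422, minus strand) is the decarboxylase that yields isopentenyl pyrophosphate. It stood at 7.83, 6.70 and 10.2 CPM in Srebp2WT and at 4.70, 5.55 and 5.01 CPM in Srebp2cKO. The groups did not overlap, yet edgeR's adjusted p was 0.0592 and the gene was not called (log2 fold change -0.69, SE 0.20, 95% interval -1.13 to -0.26). DESeq2 (adjusted p = 0.0320) and the edgeR fit without a filter (0.0397) called it lower. With the correction for GC content the log2 fold change was -0.46 (adjusted p = 0.257).

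Idi1 and Fdps, which turn the building block into farnesyl pyrophosphate, were the enzymes with the smallest adjusted p. Idi1 (ENSMUSG00000058258.14, chromosome 13, 8885501 to 8892451, plus strand) is isopentenyl pyrophosphate isomerase, which makes the allylic partner that chain growth starts from. It stood at 5.20, 7.15 and 6.43 CPM in Srebp2WT and at 1.25, 1.81 and 2.74 CPM in Srebp2cKO. Every Srebp2cKO library lay far below the lowest Srebp2WT library. Idi1 fell to 30.9% of its Srebp2WT level, the lowest share among the 8 enzymes (log2 fold change -1.67, SE 0.28, 95% interval -2.29 to -1.05, edgeR adjusted p = 0.0101). Counted from the lowest log2 fold change, Idi1 ranked 90 among the 11932 genes tested.

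Within Srebp2cKO, Idi1 also differed between libraries. It had 17, 28 and 47 counts, with exact 95% Poisson intervals of 9.90 to 27.2, 18.6 to 40.5 and 34.5 to 62.5 that cover counting error only, so replicates 6 and 8 differed by more than counting error. Srebp2WT libraries held 83, 111 and 95 counts. The log2 fold change was -2.02 without Srebp2cKO replicate 8 and -1.45 without Srebp2cKO replicate 6, and the call was lost in 1 of the 6 fits that left out a library, without Srebp2WT replicate 3 (-1.57, adjusted p = 0.0530). Idi2, which encodes a second isomerase, had at most 4 counts in any library. Transcripts of other genes held 30.5% of the 50-base words of Idi1; all of these were unnamed or predicted gene models (Gm symbols), so reads of Idi1 could have been split.

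Fdps (ENSMUSG00000059743.12, chromosome 3, 89093588 to 89101959, minus strand) is farnesyl pyrophosphate synthase. It stood at 13.8, 12.95 and 12.7 CPM in Srebp2WT and at 7.12, 6.97 and 7.75 CPM in Srebp2cKO. Libraries of a genotype lay close together and the groups were well apart. Fdps fell to 55.4% of its Srebp2WT level (log2 fold change -0.85, SE 0.13, 95% interval -1.14 to -0.56, edgeR adjusted p = 0.00638). Of the 4 enzymes called, it alone kept its call in all 6 fits that left out 1 library, with log2 fold changes from -0.90 to -0.81, and in all 9 other settings.

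Ggps1 (ENSMUSG00000021302.10, chromosome 13, 14050659 to 14063488, minus strand), geranylgeranyl pyrophosphate synthase, extends farnesyl pyrophosphate by 1 further unit. It stood at 57.1, 65.0 and 69.6 CPM in Srebp2WT and at 65.1, 91.7 and 74.1 CPM in Srebp2cKO. The groups overlapped, with Srebp2cKO replicate 7 the highest of all libraries. The change did not pass (edgeR adjusted p = 0.182, log2 fold change 0.27, SE 0.13, 95% interval -0.01 to 0.55). The log2 fold change was 0.12 without Srebp2cKO replicate 7 and 0.04 with the correction for GC content (adjusted p = 0.837). The interval leaves out a fall of the size measured for any of the 4 enzymes that were called.

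**Figure D2:**
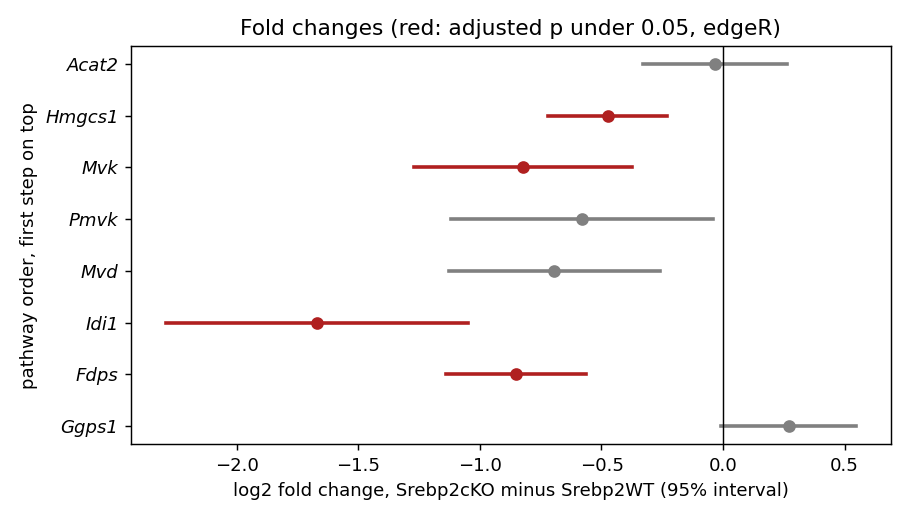
Log2 fold change of each enzyme, Srebp2cKO minus Srebp2WT, with its 95% interval from edgeR, in pathway order from top to bottom. The fold change is largest for Idi1 (-1.67), while the intervals of Acat2 and Ggps1 include 0.

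Across settings the direction was the same for 7 of the 8 enzymes, with Acat2 the exception. With 1 library left out, the number of enzymes called lower ran from 1 to 4. It was 2 without Srebp2WT replicate 1, 1 without Srebp2WT replicate 3 and 2 without Srebp2cKO replicate 8. DESeq2, the fit without a filter and a false discovery rate of 0.1 gave 5, and the correction for GC content gave 3. In the same fits the number of genes called lower over the whole table also shrank, to 135 without Srebp2WT replicate 1, 155 without replicate 3 and 343 without Srebp2cKO replicate 8, from 506.

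**Figure D3:**
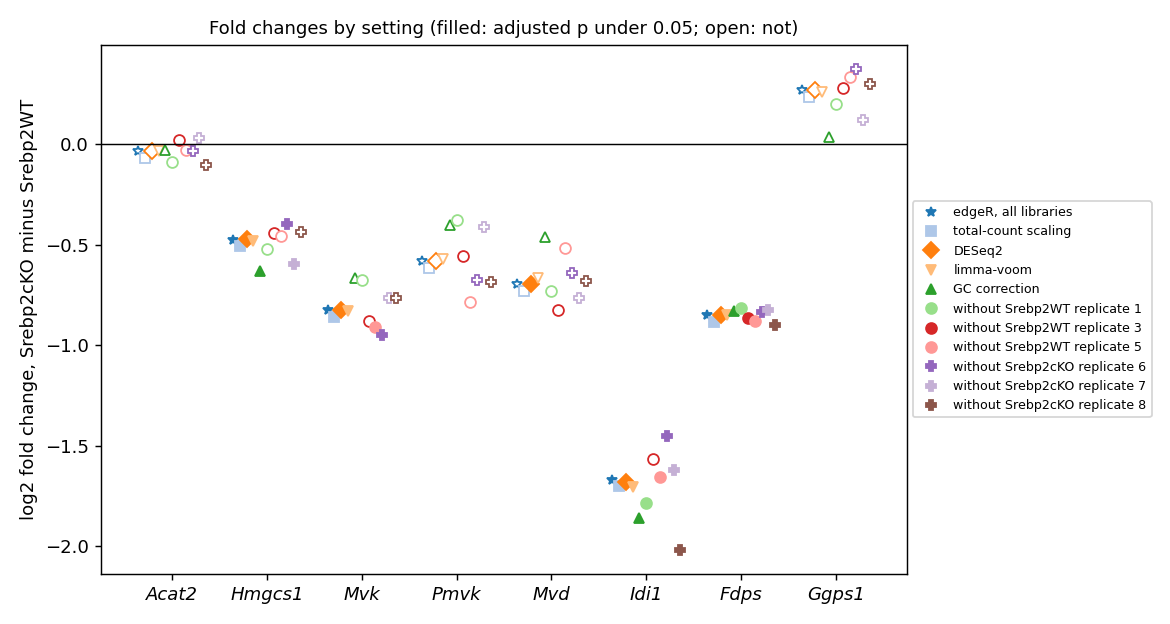
Log2 fold change of each enzyme under 11 settings, 1 marker per setting. Filled markers have an adjusted p under 0.05 and open markers do not. Fdps is filled throughout, Idi1 is open only without Srebp2WT replicate 3, and Pmvk, Acat2 and Ggps1 are open throughout.

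Transcripts with more GC had lower fold changes in these libraries, so each enzyme is given beside tested genes within 1 point of its own GC content. Idi1 (41.9% GC) and Hmgcs1 (43.1%) have low GC content, and genes like them had median log2 fold changes of 0.17 (867 genes) and 0.15 (1016 genes). Their own values, -1.67 and -0.47, lay on the other side of 0. Fdps (50.6%) and Acat2 (49.6%) sat where that median was -0.02. Mvk (56.3%), Pmvk (57.0%) and Mvd (59.0%) have high GC content, and genes like them had medians of -0.16, -0.18 and -0.25, in the same direction as these enzymes. For Ggps1 (40.1%) the median of 648 genes was 0.22, close to its own 0.27. With the correction, Idi1 moved to -1.86, Hmgcs1 to -0.63 and Fdps to -0.83, and all 3 passed.

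Compared per kilobase of the longest transcript, levels in Srebp2WT followed the order Ggps1 (15.1 ± 1.48 CPM per kilobase, mean ± SD, n = 3 here and below), Hmgcs1 (12.1 ± 0.748), Pmvk (7.39 ± 2.11), Acat2 (5.12 ± 0.396), Mvd (4.50 ± 0.981), Fdps (4.45 ± 0.189), Mvk (2.96 ± 0.496) and Idi1 (2.07 ± 0.326). The neighbours Pmvk and Acat2, Acat2 and Mvd, and Mvd and Fdps overlapped in that order, and the other neighbours did not. Ggps1 and Hmgcs1 stood above all others in every Srebp2WT library, and Idi1 below all. In Srebp2cKO, Acat2 (5.00 ± 0.483) and Pmvk (4.95 ± 1.10) changed places with overlapping values, and the rest of the order was the same, from Ggps1 (18.1 ± 3.19) to Idi1 (0.638 ± 0.249). Of the summed level of the 8 enzymes per kilobase, Ggps1 made up 25.4% to 30.5% in Srebp2WT and 37.4% to 45.7% in Srebp2cKO, and Idi1 3.25% to 4.36% and 1.00% to 2.03%. Neither range overlapped between the genotypes. The sum itself was 52.9 to 54.2 CPM per kilobase in Srebp2WT and 41.1 to 47.3 in Srebp2cKO, while the levels of Ggps1 overlapped and its change did not pass, so its larger share is no sign of a rise. The order was the same with the union of all exons as the length.

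Ratios of counts within a library do not depend on scaling between libraries. They were not corrected for GC content, which differs within pairs such as Idi1 (41.9%) and Mvd (59.0%) or Ggps1 (40.1%) and Fdps (50.6%). The part of the GC trend in these ratios was not tested. The ratio of each enzyme to the one before it in the list was compared, and none of the 7 ratios passed an exact permutation test. The ratio of Ggps1 to Fdps, the synthases that follow each other at the branch to geranylgeranyl pyrophosphate, was 4.15, 5.02 and 5.47 in Srebp2WT and 9.14, 13.2 and 9.56 in Srebp2cKO. Fdps to Idi1 was 2.65, 1.81 and 1.98 in Srebp2WT and 5.71, 3.86 and 2.83 in Srebp2cKO. Idi1 to Mvd was lower in Srebp2cKO, at 0.266, 0.326 and 0.547 against 0.664, 1.07 and 0.629. Hmgcs1 to Acat2 was lower as well, at 2.36, 3.43 and 2.33 against 3.67, 3.54 and 3.70. In these 4 ratios the genotypes did not overlap, which gives the smallest exact two-sided permutation p that 3 against 3 libraries allow, 0.1, and 0.175 when adjusted over the 7 ratios. The ratios among Hmgcs1, Mvk, Pmvk and Mvd overlapped.

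**Figure D4:**
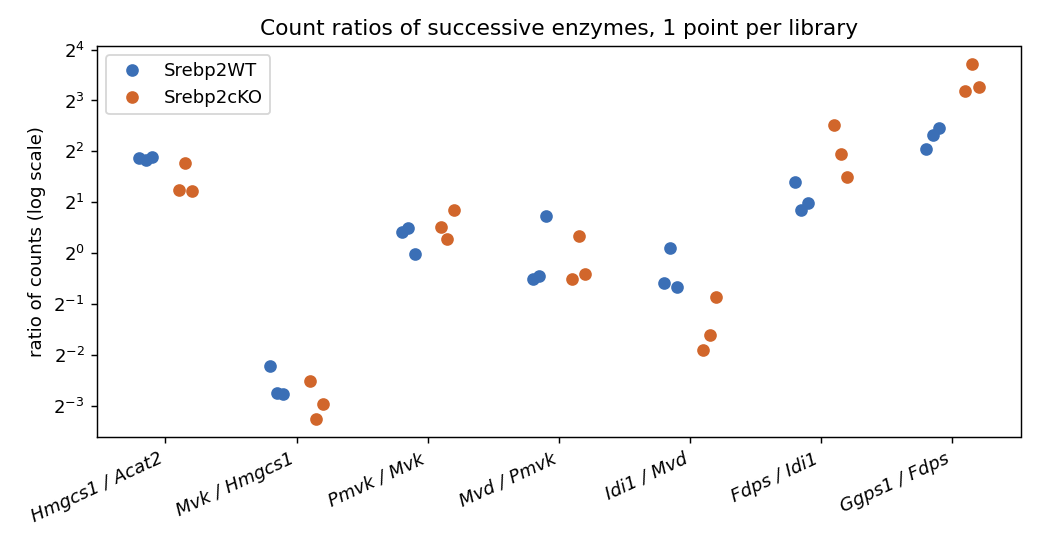
Ratio of counts of each enzyme to the one before it in the pathway order, 1 point per library, on a log scale. The genotypes are apart for Hmgcs1 to Acat2, Idi1 to Mvd, Fdps to Idi1 and Ggps1 to Fdps, and overlap for the others.

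Genes next to the enzymes were also examined. Annotated gene models that were not found in the count table overlap Hmgcs1, Mvd, Idi1 and Fdps. Gm43738 overlaps Fdps by 7512 bases on the same strand. Of the 50-base words of Fdps, 11.7% also occurred in transcripts of other genes, and of those of Hmgcs1 13.6%. How such reads were counted is not known. Mmab, a cobalamin adenosyltransferase gene, starts 209 bases from Mvk on the opposite strand, so the pair shares the stretch printed for Mvk. Mmab stood at 9.59, 11.8 and 11.9 CPM in Srebp2WT and at 8.59, 8.52 and 8.98 CPM in Srebp2cKO. These groups did not overlap, but the change did not pass (log2 fold change -0.35, edgeR adjusted p = 0.138). Arid4b, which encodes a chromatin protein, overlaps the start of Ggps1 on the opposite strand by 257 bases. It stood at 176, 178 and 209 CPM in Srebp2WT and at 197, 252 and 239 CPM in Srebp2cKO (log2 fold change 0.29, adjusted p = 0.110). Replicate 7 was the highest library for both Arid4b and Ggps1. No source used here gives the strand setting of the counting, so reads from the overlap cannot be assigned.

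Around the 8 enzymes, the steps that supply acetyl-CoA and the enzymes that run parallel to the list were read from the same fits. Of 8 such genes, 5 were tested, and 0 were lower and 0 higher (edgeR, 2 at an unadjusted p under 0.05, median log2 fold change -0.03). For 5 genes this lies near the shares of all genes tested, 4.24% lower and 2.37% higher. DESeq2 and limma-voom also called 0 in either direction. Acly, the citrate lyase that makes cytosolic acetyl-CoA, had a log2 fold change of -0.10 (adjusted p = 0.386), and Acat1, the mitochondrial thiolase, 0.18 (adjusted p = 0.164).

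Of 12 enzymes tested in the sterol branch, which starts from farnesyl pyrophosphate, 6 were lower and 0 higher (median log2 fold change -0.36), against 4.24% and 2.37% of all genes tested. Fdft1, squalene synthase, takes farnesyl pyrophosphate into that branch and had a log2 fold change of -0.81, close to that of Fdps. Sqle (-4.49), squalene epoxidase, and Cyp51 (-1.63), lanosterol demethylase, were also among the 6. A further 13 genes tested use isoprenyl pyrophosphates outside sterols, in protein prenylation and in dolichol and ubiquinone synthesis. Of these, 0 were lower and 0 higher, near the same 4.24% and 2.37% (edgeR, 4 at an unadjusted p under 0.05, median 0.04). DESeq2 called 1 of them higher and 0 lower, and limma-voom 0 in either direction. Chm, a Rab escort protein, had the smallest adjusted p of these (log2 fold change 0.37, adjusted p = 0.0783) and was chosen after its values were seen. Of 6 genes of SREBP processing, 1 was lower, Insig1 (-0.72), which holds SREBP proteins in the endoplasmic reticulum, and 0 were higher, against the same 4.24% and 2.37%. DESeq2 and limma-voom each called 2 of the 6 lower and 0 higher.

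The mean profile of the 8 enzymes over the 6 libraries, in log2 CPM centred on each gene's mean, was 0.30, 0.31 and 0.28 in Srebp2WT and -0.37, -0.32 and -0.21 in Srebp2cKO. Among all other tested genes, those with the smallest root mean square difference from that profile included Map2k3 (0.0534), a MAP kinase kinase, Efemp2 (0.0564), an extracellular matrix protein, Scd2 (0.0577), a fatty acid desaturase, and Stk35 (0.0693), a kinase. Efemp2 was near the floor, with means of 0.714 CPM in Srebp2WT and 0.453 CPM in Srebp2cKO, and its change did not pass (edgeR adjusted p = 0.277). The enzymes themselves differed from the mean profile by 0.128 (Fdps) to 0.615 (Idi1). The libraries of a genotype did not rank alike across the enzymes: Srebp2cKO replicate 6 was the lowest of its genotype for 4 enzymes and the highest for 2, and replicate 7 the lowest for 4 and the highest for 3. Srebp2cKO replicate 8 was the lowest for none and the highest for 3.

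**Figure D5:**
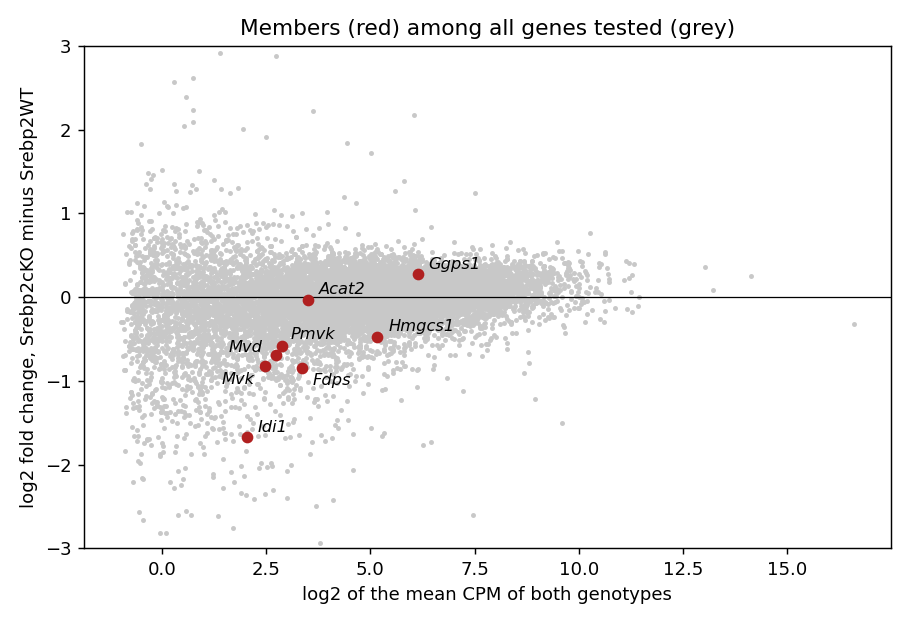
Log2 fold change against the log2 of the mean CPM of both genotypes for the 11932 genes tested (grey), with the 8 enzymes in red; 18 genes beyond 3 on either side are not drawn. Idi1 (-1.67) lies lowest of the 8, and Acat2 (-0.03) and Ggps1 (0.27) lie nearest to the line at 0.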

How the data were processed

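Total RNA was made into libraries with ribosomal RNA depletion, per the labels' protocols. The authors deposited raw counts per gene symbol, 1 column for each of 6 libraries, matched to samples by title. The submitters' processing notes name HISAT2 2.2.1, mm10 and Cell Ranger with no role. No source used here gives the counting tool, annotation or strand setting. Pairs of libraries of a genotype differed beyond sampling noise (6.71 to 34.8 for chi-square over its degrees of freedom), so they were not merged. Each counted as 1 replicate, although that spread does not tell whether they are separate animals.

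Genes were kept by filterByExpr (11932 of 24421), scaled with TMM and fitted in edgeR 4.0.16 (R 4.3.3; quasi-likelihood test, Srebp2cKO minus Srebp2WT, no covariate). P-values were adjusted over all genes tested by Benjamini-Hochberg, and a gene was called under 0.05. The SE was the log2 fold change divided by the square root of F. The fits were tested on data simulated with the same dispersion for every gene and no GC trend. Such data do not show how the fits handle the GC trend or the uneven libraries here.

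Alternatives were DESeq2 1.42.0, limma-voom (limma 3.58.1), scaling by RLE, upper quartile or total counts, a robust fit, no filter, at least 1 CPM in 3 libraries, a false discovery rate of 0.1, leaving out each library, and a GC correction, with offsets from a loess curve (span 0.3) fitted per library to log2 CPM against transcript GC. Positions, lengths and GC came from GENCODE M21 and promoters from RefSeq, both on GRCm38, the build that mm10 names. Shared words of 50 bases were sought in all GENCODE transcripts on either strand.

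The members and all gene lists were chosen with earlier results of these data known. Named genes were the 8 enzymes, Srebf2, Foxp3, genes overlapping an enzyme or starting within 1 kb of its start on the other strand and found in the table, up to 4 called genes of each other list by smallest p, and the 5 genes with the most similar profile (log2 CPM with a prior count of 2). Genes outside the rule appear as pathway context. Some genes named by this rule are not reported here.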

Additional observations from a re-analysis of the deposited data

How the results depend on the processing

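No paired analysis was possible because the genotypes share no replicate number. The number of enzymes called lower ran from 1 to 4 when 1 library was left out. Over all genes, DESeq2 called 778 lower and 626 higher and a false discovery rate of 0.1 gave 1032 and 861, against 506 and 283. Total-count scaling gave 184 higher and the fit without a filter 473. Leaving out 1 library gave 135 to 787 lower and 29 to 700 higher. The log2 fold change of Acat2 ran from -0.103 to 0.033 in these fits, changing sign in 2, and that of Foxp3 turned from -0.061 to 0.063 with the correction for GC content; the cause was not tested beyond the settings themselves. Among the 8 enzymes, calls were lost 9 times in the fits that left out a library, and the other settings lost 1 call (Mvk, with the GC correction) and gained Mvd with DESeq2, without a filter and at a false discovery rate of 0.1. Counts of Idi1 were 17 to 47 per Srebp2cKO library, so counting error is wide there; how far depth, rather than spread between libraries, limits the low enzymes was not tested.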
